A study of Mus musculus with 9 samples.

Results

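The NKG2, CD94 and related lectin receptor genes were followed in natural killer (NK) cells, as 8 genes out of the 27179 in each count file. The genes were Klrc1, Klrc2, Klrc3, Klrd1, Klrk1, Klre1, Klri1 and Klri2, found by matching the Entrez identifiers of the files to these symbols, and all 8 matched. They are protein-coding genes that lie side by side on chromosome 6 in GRCm38, from position 129559365, where Klre1 starts, to position 129740484, where Klri2 ends. RNA sequencing was done on splenic NK cells of C57BL/6 mice. Id2-null cells (3 libraries) were compared with wild-type (WT) cells (3 libraries), and both had been grown for 7 days in interleukin-15 (IL-15), a cytokine that NK cells need to survive. The other 3 libraries hold wild-type populations called Immature, M1 and M2, with 1 library each, sorted from spleen and never cultured. The protocol in the labels numbers the cultured and the sorted samples only by their place in the list, and the 6 libraries that name a genotype were taken as the cultured ones. The sources used here do not give how Id2 was deleted, which markers were sorted on or how many mice were used. Separate mice or cultures are not stated for the replicates either, so the p-values rest on a spread between libraries that may be technical.

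The products are C-type lectin-like receptors on the surface of NK cells and some T cells. CD94, encoded by Klrd1, is the partner chain that brings NKG2 proteins to the surface. CD94 with NKG2A (Klrc1) inhibits killing, whereas CD94 with NKG2C (Klrc2) or NKG2E (Klrc3) activates it, and these pairs bind the non-classical class I molecule Qa-1b. NKG2D, encoded by Klrk1, is a separate activating receptor for stress-induced ligands and works as a homodimer with the adaptors DAP10 and DAP12. KLRE1 (Klre1) has been described in mouse and rat as the partner of KLRI1 in an inhibitory receptor and of KLRI2 in an activating one.

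Total counts ran from 4128414 to 4831831 per library, so 3 counts, the most that a count of 0 allows, stood for 0.62 to 0.73 CPM (counts scaled to library size). This limit covers counting error only. Id2 had 56, 113 and 44 counts in the libraries labelled Id2-null and 1958, 1925 and 1945 in those labelled WT, in the direction of the labels. The X-inactivation RNA Xist averaged 781 CPM in the Id2-null libraries, against 0.663 CPM in WT, and the Y-linked gene Ddx3y 0.489 CPM, against 74.7 CPM, so sex and genotype cannot be told apart. Across genes, Id2-null replicate 3 correlated with replicates 1 and 2 at 0.949 and 0.951, against 0.988 between those 2, and WT replicate 3 at 0.977 and 0.973, against 0.986. Of 8 markers of NK cells, Ncr1 and Klrb1c had 474 CPM or more as the mean of every group. Some others were lower in places, such as Eomes, with 402 CPM in M2 cells. The lowest mean was that of Tbx21, which averaged 89.3 CPM in Id2-null cultures, against 136 CPM in WT cultures. Markers of B cells summed to at most 1.76 CPM in the cultures and 21.6 to 84.7 CPM in the sorted libraries, and those of red cells and platelets to 0 and to 6.88 to 25.3 CPM. Levels below are CPM scaled by TMM (a correction for library composition) over the 9 libraries, and levels of different genes are compared only as CPM per kilobase of gene length.

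Between Id2-null and WT cultures, the receptor genes differed from each other in what they did. Klri1, the inhibitory partner of KLRE1, fell to 0.461 of its WT level. Klrc1 was lower, and Klrc2 and Klrc3 were higher, in every Id2-null library than in every WT library, without passing the test across all genes. The shared partner chains Klrd1 and Klre1 and the activating receptors Klrk1 and Klri2 overlapped between the genotypes. In all, 1 of the 8 genes was called, against 3.42% of the 11022 genes tested (edgeR quasi-likelihood test with Benjamini-Hochberg adjustment over all genes, adjusted p under 0.05). None was called higher by edgeR, DESeq2 or limma voom, against 1.91% of all genes called higher by edgeR, and at an unadjusted p under 0.05 each of these tests had 2 of the 8 higher and 2 lower. In edgeR 14.6% of all genes had such a p in either direction. Values of the genotypes did not overlap for 4 of the 8 genes, against 20.4% of all genes. All 8 passed the filter on low counts. Their median log2 fold change was 0.01, with 4 above and 4 below 0, and the median of all genes tested was also 0.01.

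**Figure D1:**
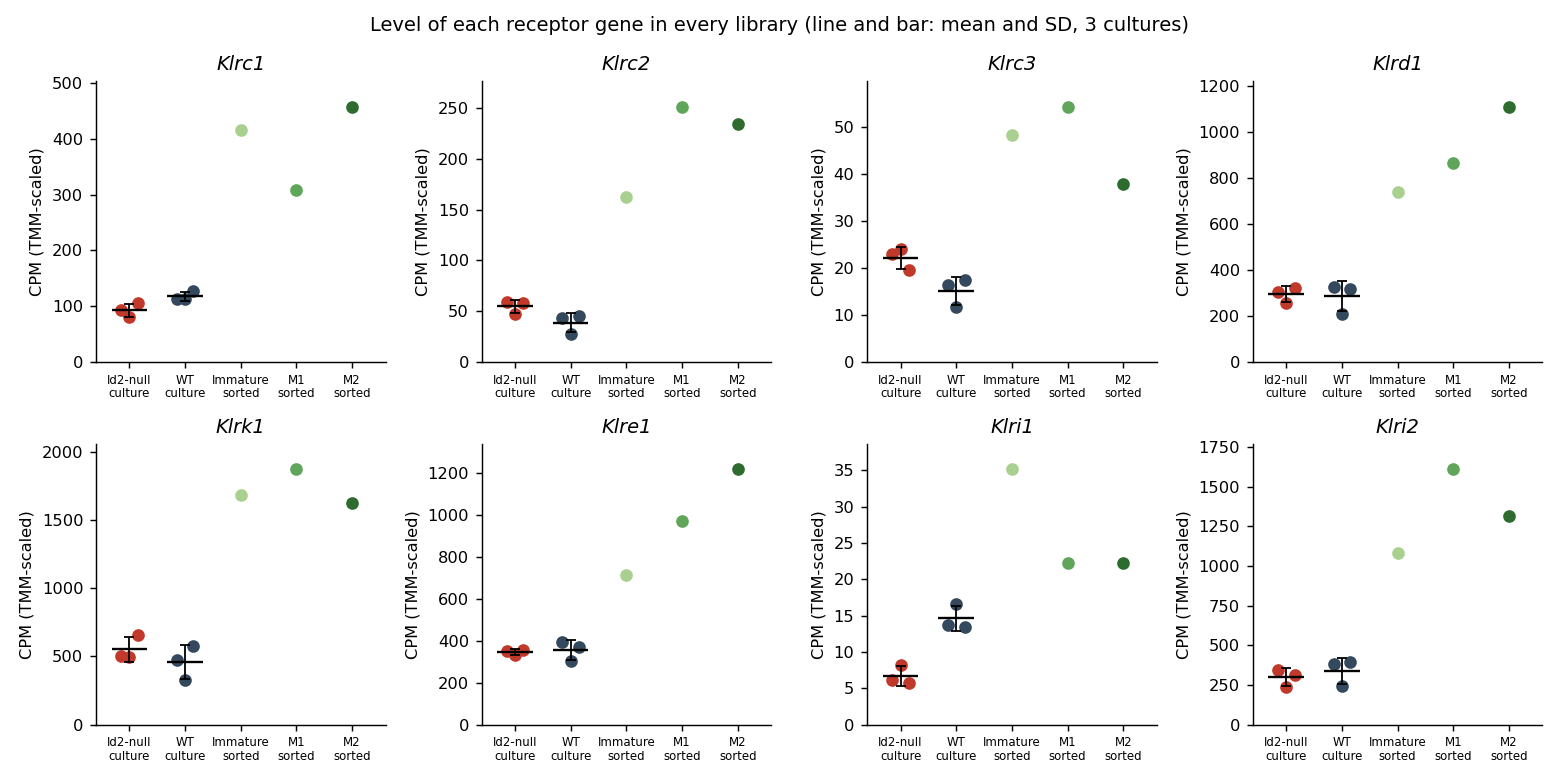
Level of each of the 8 receptor genes in CPM (y axis, from 0, a scale of its own for each gene) in every library, grouped on the x axis as Id2-null and WT cultures and the sorted Immature, M1 and M2 populations. Points are libraries, and lines with bars are the mean and SD of 3 cultures. Every cultured library lies below every sorted library for each gene, and the genotypes separate for Klrc1, Klrc2, Klrc3 and Klri1.

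Klrc1, which encodes the inhibitory chain NKG2A, had 92.2, 81.2 and 104.8 CPM in Id2-null replicates 1 to 3, against 112, 113 and 127 CPM in WT replicates 1 to 3. The highest Id2-null library was still under the lowest WT library. The means were 92.8 ± 11.8 CPM in Id2-null cells, against 118 ± 8.47 CPM in WT cells (SD, n = 3 each). The edgeR fit put the log2 fold change at -0.34 (SE 0.13, adjusted p = 0.279).

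Klrc2, which encodes the activating chain NKG2C, had 59.0, 47.6 and 57.7 CPM in Id2-null replicates, against 43.1, 27.7 and 45.4 CPM in WT replicates. Its genotypes did not overlap, but Id2-null replicate 2 lay only just above WT replicate 3, and WT replicate 2 was the lowest library of all. The log2 fold change by edgeR was 0.50 (SE 0.20, adjusted p = 0.291). Klrc3, which encodes NKG2E, had 22.9, 24.1 and 19.6 CPM in Id2-null replicates, against 16.2, 11.7 and 17.3 CPM in WT replicates. All Id2-null values were again above all WT values, and the log2 fold change by edgeR was 0.56 (SE 0.20, adjusted p = 0.235). Among the alternatives run, Klrc3 was called only when replicate 3 of both genotypes was left out, at a log2 fold change of 0.75 (adjusted p = 0.0259), and Klrc2 then stood at adjusted p = 0.0551. In the fit blocked on replicate number, edgeR gave an adjusted p of 0.0845 for Klrc1, 0.0518 for Klrc2 and 0.152 for Klrc3.

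The same difference can be written as a balance inside each library, where scaling between libraries does not enter. Klrc1 took 53.0, 53.1 and 57.6% of the counts of Klrc1, Klrc2 and Klrc3 in Id2-null replicates, against 65.4, 74.2 and 67.0% in WT replicates. The shares did not overlap, with means of 54.5 ± 2.61% in Id2-null and 68.9 ± 4.71% in WT cells (SD, n = 3 each), a difference of -14.3 percentage points. Since Klrc1 was lower and Klrc2 and Klrc3 were higher in every Id2-null library, these shares had to separate. Their exact two-sided permutation test was therefore bound to give its smallest possible p, 0.1, and the shares are given as a description. Klrc2 made up 31.1 to 33.9% in Id2-null and 18.1 to 25.2% in WT libraries, and Klrc3 made up 10.8 to 15.8% in Id2-null and 7.64 to 9.48% in WT libraries. The counts of the 3 genes added up and fitted as 1 row differed by -0.01 on the log2 scale in edgeR (SE 0.13, adjusted p = 0.993). Divided by gene length and set over Klrd1 per length, the family stood at 0.673, 0.699 and 0.658 in Id2-null and 0.613, 0.851 and 0.698 in WT replicates. These ratios overlapped, with means of 0.677 ± 0.0208 in Id2-null and 0.721 ± 0.120 in WT cells (SD, n = 3 each, exact two-sided permutation p = 0.8). Markers of NK cells and T cells also differed between the libraries, although edgeR called 0 of the 8 NK markers (3 at an unadjusted p under 0.05) and 0 of the 6 T cell markers it could test (2 at an unadjusted p under 0.05). DESeq2 called 2 NK markers, Tbx21 and Gzma, lower and 1 T cell marker, Cd3d, higher, and limma voom called Gzma lower and Cd3d higher. The edgeR fit with the replicate block called the NK markers Prf1 and Tbx21 lower. The summed level of the 8 NK markers was 6316 to 7287 CPM in Id2-null libraries, against 9005 to 12225 CPM in WT libraries. The lower sum rests on Gzma, at 465 CPM in Id2-null cultures, against 3704 CPM in WT cultures, and Prf1, at 501 CPM in Id2-null cultures, against 1451 CPM in WT cultures. Without these 2 genes, a choice made after seeing the data, the other 6 markers summed to 5763 to 6025 CPM in Id2-null libraries, against 5383 to 5546 CPM in WT libraries. Of the 8 means, 4 were higher in Id2-null cells (Ncr1, Klrb1c, Eomes and Il2rb) and 4 lower. The sum of 11 T cell markers was 534 to 965 CPM in Id2-null libraries, against 434 to 632 CPM in WT libraries, which overlap. The T cell markers went both ways, with 5 means higher and 5 lower in Id2-null cells, but this tally includes markers near a count of 0. Cd8a, Cd8b1, Cd5 and Cd6 were too low in the cultures to be tested. Of the 6 tested, Cd3d, Cd3g, Trbc1 and Trbc2 were higher and Cd3e and Trac lower. Their median log2 fold change was 0.50, against 0.01 for all genes. Cd3d averaged 115 CPM in Id2-null cells, against 27.9 CPM in WT cells, and Cd3e 14.7 CPM in Id2-null cells, against 39.1 CPM in WT cells, and the replicate block called Cd3d higher and Cd3e lower. Cd3g averaged 108 CPM in Id2-null cells, against 36.4 CPM in WT cells. Trbc1 averaged 373 CPM in Id2-null cells, against 275 CPM in WT cells, and Trbc2 165 CPM, against 113 CPM. Trac averaged 5.16 CPM in Id2-null cells, against 8.56 CPM in WT cells, whereas Cd4 had a count of 0 in all 6 cultures and Cd8a averaged 1.07 CPM in both genotypes. The part of these markers in the Klrc balance was not tested, and fewer cells of a type cannot be told apart from less RNA per cell.

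**Figure D2:**
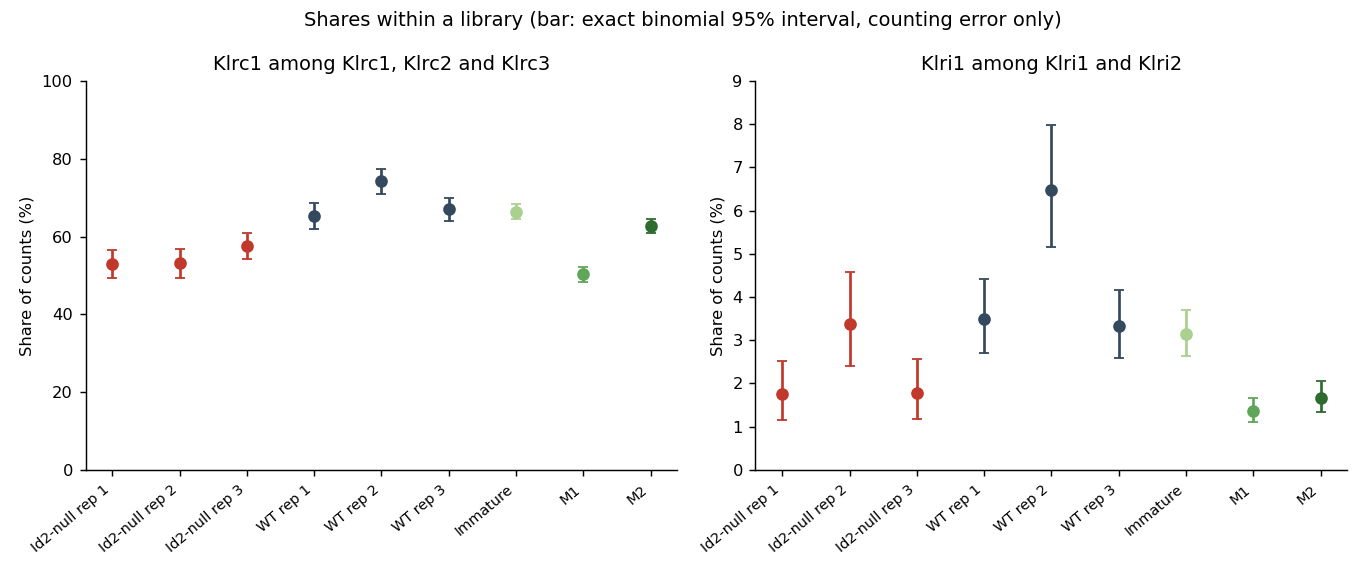
Share of Klrc1 in the counts of Klrc1, Klrc2 and Klrc3 (left) and of Klri1 in those of Klri1 and Klri2 (right), in percent, for each library on the x axis. Bars are exact binomial 95% intervals, which cover counting error only. The Klrc1 share lies at 53.0 to 57.6% in the Id2-null libraries, below the 65.4 to 74.2% of the WT libraries, and the sorted M1 library is lowest at 50.3%.

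The sources used here do not say how reads shared between genes were counted, which limits how far the Klrc rows can be told apart. In GENCODE transcripts, 38.6% of the 50-base windows of Klrc1 also occurred in another gene, and 36.6% occurred in Klrc2. The corresponding figures were 29.4% for Klrc2 and 38.6% for Klrc3, of whose windows 33.0% were shared with Klrc2. With 100-base windows the shared part was 14.6% for Klrc1, 12.8% for Klrc2 and 18.1% for Klrc3. Klrd1, Klrk1 and Klre1 shared 0% of their windows with any other gene at either length, and Klri1 shared 5.83% with Klri2 at 50 bases and 0% at 100 bases.

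The promoters of the 4 genes whose genotypes did not overlap are printed to set the pair with higher values, Klrc2 and Klrc3, beside Klrc1 and Klri1. Each comes from the 250 bases before the start that a RefSeq promoter table of GRCm38.p6 gives, on the minus strand and written 5′ to 3′. Bases that GENCODE annotates as exon were left out, 93 for Klrc2 and 49 for Klrc3, and the Klrc1 and Klri1 windows lie inside the gene spans that RefSeq gives. The capitals mark the E-box CANNTG, a general motif that includes the sites of the E proteins that ID2 inhibits. Which proteins bind the forms found here was not tested. The windows are chr6:129678974-129679223 for Klrc1, chr6:129660690-129660846 for Klrc2, chr6:129643338-129643538 for Klrc3 and chr6:129717133-129717382 for Klri1.
Klrc1: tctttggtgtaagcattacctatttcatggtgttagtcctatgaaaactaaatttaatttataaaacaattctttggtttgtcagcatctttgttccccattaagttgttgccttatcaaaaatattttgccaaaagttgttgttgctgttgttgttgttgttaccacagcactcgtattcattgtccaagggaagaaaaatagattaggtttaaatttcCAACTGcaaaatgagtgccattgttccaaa
Klrc2: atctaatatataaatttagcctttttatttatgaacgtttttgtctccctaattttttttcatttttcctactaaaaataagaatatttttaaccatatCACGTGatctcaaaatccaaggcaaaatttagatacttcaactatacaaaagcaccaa
Klrc3: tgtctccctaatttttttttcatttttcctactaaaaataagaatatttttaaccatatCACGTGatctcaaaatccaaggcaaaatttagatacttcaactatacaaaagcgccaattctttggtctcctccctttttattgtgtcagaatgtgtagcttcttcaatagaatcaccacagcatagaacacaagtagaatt
Klri1: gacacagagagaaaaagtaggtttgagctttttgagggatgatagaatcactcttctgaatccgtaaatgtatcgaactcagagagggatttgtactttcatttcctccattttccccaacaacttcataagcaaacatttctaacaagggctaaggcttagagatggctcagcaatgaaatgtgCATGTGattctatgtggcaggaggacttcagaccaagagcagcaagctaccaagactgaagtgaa

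The Klrc2 and Klrc3 promoters share a nearly identical stretch. Over the full 250 bases the best local alignment matched at 206 of 210 positions (98.1%), and the end-to-end alignment, which includes the stretches that do not line up, at 206 of 291 columns (70.8%). The local alignment runs to the end of the Klrc2 window, so it includes the 93 bases left out above as Klrc2 exon. Both promoters hold the palindromic E-box CACGTG. Aligned end to end in the same way, Klrc1 matched Klrc2 at 46.1% and Klrc3 at 47.7% of columns, and its E-box is CAACTG, 30 bases before the start. Klri1 holds CATGTG, 65 bases before its start. Klrk1, whose genotypes overlapped, holds the same CAACTG as Klrc1. Klre1, whose genotypes overlapped too, holds CACATG, which reads CATGTG on the other strand. Neither CAACTG nor CATGTG was thus limited to genes whose genotypes separated. Of the 8 genes, 6 matched the table and each held 1 E-box, and 66.2% of all 32851 promoters held at least 1. Over the full 250 bases the RUNX motif TGTGGT, searched on both strands like the other motifs, was present in 5 of the 6 and in 14% of all promoters. It was absent from the Klri1 window. In Klrc2 its matches lay only in the bases left out as exon, so the Klrc2 sequence printed above holds none. The ETS core GGAA was present in all 6 and in 93.4% of all promoters, and the T-box letters TCACACCT in 0 of the 6 and in 1.12% of all. Klrd1 and Klri2 had no entry. These are matches of letters, not measured sites.

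Klrd1, the CD94 chain that the NKG2 proteins share, had 303, 257 and 324 CPM in Id2-null replicates, against 328, 211 and 319 CPM in WT replicates. The genotypes overlapped, and edgeR put the log2 fold change at 0.05 (SE 0.18, adjusted p = 0.946). Its direction changed when Id2-null replicate 3 or WT replicate 2 was left out, at -0.03 and -0.13. Klrk1, the NKG2D gene, had 504, 493 and 656 CPM in Id2-null replicates, against 475, 329 and 572 CPM in WT replicates. The log2 fold change by edgeR was 0.27 (SE 0.21, adjusted p = 0.648), and it ranged from 0.08 without WT replicate 2 to 0.46 without WT replicate 3. Within pairs of equal replicate number Klrk1 was higher in Id2-null cells in 3 of 3, with an adjusted p of 0.226 in the edgeR fit with the replicate block.

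In the KLRE and KLRI group, the partner chain Klre1 had 352, 329 and 355 CPM in Id2-null replicates, against 395, 305 and 368 CPM in WT replicates. The Id2-null values lay inside the WT range, and the log2 fold change by edgeR was -0.04 (SE 0.13, adjusted p = 0.941). Klri2, the activating partner, had 347, 237 and 316 CPM in Id2-null replicates, against 380.0, 241 and 393 CPM in WT replicates. The genotypes overlapped (log2 fold change -0.17, SE 0.22, adjusted p = 0.804, edgeR). Within pairs of equal replicate number Klri2 was lower in Id2-null cells in 3 of 3, with an adjusted p of 0.470 in the edgeR fit with the replicate block. Replicate 2 was the lowest of its genotype in both cases.

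Klri1, the inhibitory partner, was the least abundant of the 8 genes and the one that fell. It had 28, 39 and 28 counts in Id2-null replicates, or 6.16, 8.25 and 5.71 CPM, against 66, 80 and 70 counts in WT replicates, or 13.7, 16.6 and 13.5 CPM. The highest Id2-null library lay well under the lowest WT library. The log2 fold change by edgeR was -1.12 (SE 0.23, adjusted p = 0.0381), which is 0.461 of the WT level. Leaving out any 1 library other than Id2-null replicate 3 lost the call, with edgeR adjusted p between 0.0618 and 0.159, and the log2 fold change stayed between -1.29 and -1.01. With the replicate block, which raised the share of all genes called to 7.58%, Klri1 was again the single member called (adjusted p = 0.0131). Klri1 made up 1.75, 3.37 and 1.78% of the Klri1 and Klri2 counts in Id2-null replicates, against 3.49, 6.47 and 3.32% in WT replicates. Id2-null replicate 2 and WT replicate 3 overlapped by a small margin, and the exact two-sided permutation test gave p = 0.2 (0.3 adjusted over the 3 ratios computed). Within pairs of equal replicate number the share was lower in the Id2-null library in 3 of 3, and the paired exact permutation p was 0.25, the smallest that 3 pairs allow. Of 3 tested markers of type 1 innate lymphoid cells, Itga1 and Cd200r1 were called lower too, and the replicate block also called Tnfsf10 lower. The sum of the 3 markers was 153 to 224 CPM in Id2-null cells, against 271 to 427 CPM in WT libraries. Their part in the fall of Klri1 was not tested.

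**Figure D3:**
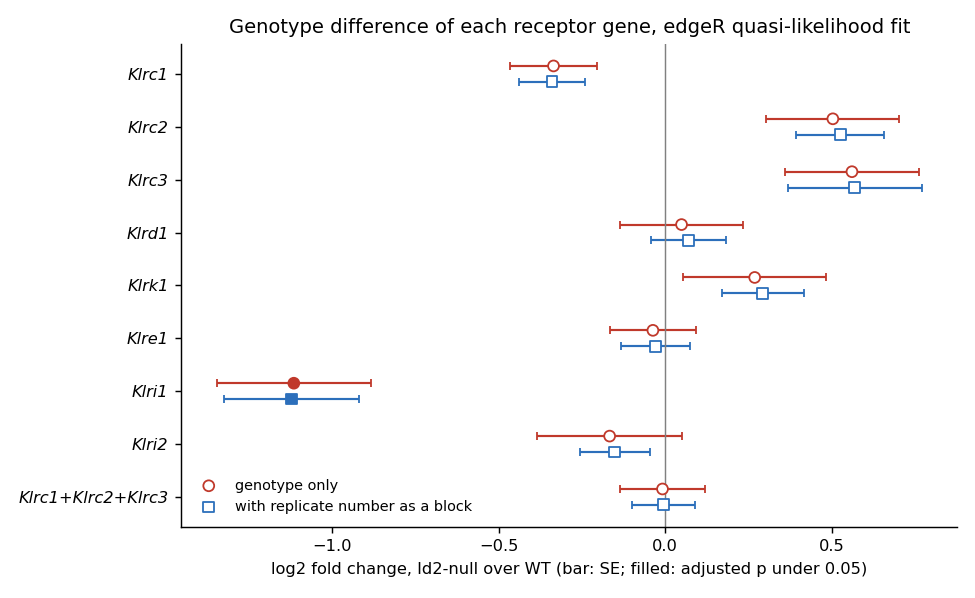
log2 fold change of each gene and of the summed Klrc rows, Id2-null over WT (x axis), from the edgeR fit with genotype alone (circles) and with the replicate number as a block (squares). Bars are SE and filled symbols have an adjusted p under 0.05. Klri1 is the single gene called, at -1.12 in both fits, and the summed Klrc rows lie at -0.01.

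The summed level of the 8 genes was 1686, 1477 and 1839 CPM in Id2-null replicates, against 1763, 1255 and 1856 CPM in WT replicates. Replicate 2 held the lowest value of its genotype for 6 of the 8 genes in both genotypes. The exceptions in Id2-null cells were Klrc3 and Klri1, for which replicate 2 was the highest library. In WT cells they were Klrc1, for which it was the middle library, and Klri1, for which it was again the highest.

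Set against the sorted populations, which are 3 different kinds of cell and were not tested as a group, the receptor genes had low levels in the WT cultures. All 8 genes had all 3 WT libraries below all 3 sorted libraries, as did 33.3% of the 12075 genes with a mean of at least 1 CPM. For all 8 the WT mean was also over 1.5-fold lower than the sorted mean, as for 25.1% of those genes. The WT mean was 0.179 of the mean of the sorted populations for Klrc2, 0.253 for Klri2, 0.266 for Klrk1 and 0.298 for Klrc1. It was 0.315 for Klrd1, 0.322 for Klrc3, 0.368 for Klre1 and 0.551 for Klri1. Klri1 was thus the gene closest to its sorted level in WT cultures, whereas in Id2-null cultures it stood at 0.253 of it. In Id2-null cultures Klrc3 was closest, at 0.475. Culture, sorting, sex and library cannot be told apart here. Xist had 127, 114 and 90.5 CPM in Immature, M1 and M2 cells, against 0.663 CPM in WT cultures. Ddx3y had 39.2, 46.3 and 37.1 CPM there, against 74.7 CPM in WT cultures. Markers of myeloid cells also differed, since Lyz2, S100a8 and S100a9 had a count of 0 in the 6 cultures and 26.7 to 243 CPM in the sorted libraries.

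The order of the genes per length was much the same in culture and in spleen. In Id2-null cultures it ran from Klre1 at 379 ± 15.5 and Klrd1 at 340.1 ± 39.3 through Klrk1 at 167 ± 27.7 and Klrc1 at 126 ± 16.1. It then went on to Klri2 at 76.6 ± 14.5, Klrc2 at 70.0 ± 8.01, Klrc3 at 33.3 ± 3.51 and Klri1 at 8.003 ± 1.61 CPM per kilobase (SD, n = 3). Klre1 and Klrd1 overlapped, as did Klri2 and Klrc2, and the other neighbours did not. In WT cultures the means were 390.0 ± 50.3 for Klre1, 330.0 ± 75.4 for Klrd1, 159.9 ± 11.5 for Klrc1 and 139 ± 37.2 for Klrk1. Below them stood Klri2 at 86.3 ± 21.5, Klrc2 at 49.5 ± 12.3, Klrc3 at 22.6 ± 4.53 and Klri1 at 17.5 ± 2.10 CPM per kilobase (SD, n = 3). Klrk1 and Klrc1 thus changed places between the genotypes, but in WT cells their ranges overlapped. In WT cells Klre1 and Klrd1 overlapped too, as did Klrk1 and Klri2, and Klrc3 and Klri1. Klri1 was lowest in all 5 groups, and Klrc2 exceeded Klrc3 in each, by 2.10 times in Id2-null and 2.19 times in WT cultures, 2.88 times in Immature, 3.94 times in M1 and 5.27 times in M2 cells.

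**Figure D4:**
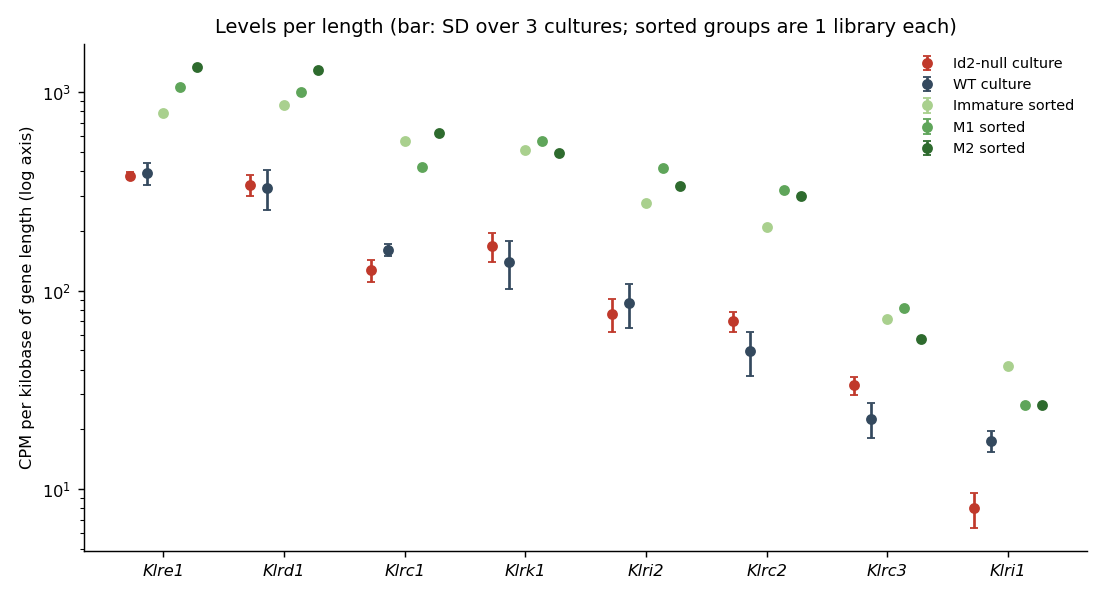
Level per gene length (y axis, CPM per kilobase, log axis) for the 8 genes ordered by their WT mean on the x axis. Points are group means for the cultures, with SD over 3 libraries, and single libraries for the sorted populations. Klre1 and Klrd1 lead and Klri1 is lowest in every group, and the sorted libraries lie above the cultures for each gene.

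Among the sorted populations, the partner chains were progressively higher from Immature to M1 to M2, while the other genes took other courses. Each population is 1 library, so these differences have no replicate check, and intervals are exact 95% intervals that cover counting error only. Klre1 had 713, 969.6 and 1217 CPM in Immature, M1 and M2 cells, and Klrd1 741, 868 and 1112 CPM. The ratio of M2 over Immature was 1.71 for Klre1 (1.63 to 1.79) and 1.502 for Klrd1 (1.43 to 1.57). These were the 2 of 8 genes at least 1.5-fold higher, against 15.2% of the 12075 genes. Klrd1 lay at that limit, and its log2 ratio of 0.59 became 0.49 to 0.57, under the limit, with the 3 other scalings tried.

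The Klrc genes did not follow each other through the same populations. Klrc1 had 416, 309 and 458 CPM in Immature, M1 and M2 cells, so that M1 was lowest, whereas Klrc2 had 163, 251 and 234 CPM. Klrc3 had 48.1, 54.3 and 37.8 CPM. Klrc2 was the single gene at least 1.5-fold higher in M1 than in Immature cells, at 1.54 (1.40 to 1.71), against 9.82% of all genes. The share of Klrc1 in the Klrc counts was 66.4% in Immature (64.5 to 68.2%), 50.3% in M1 (48.3 to 52.2%) and 62.8% in M2 cells (61.0 to 64.5%). The M1 share was the lowest of the 9 libraries, though its interval overlapped those of Id2-null replicates 1 and 2, and the interval of M2 overlapped those of WT replicates 1 and 3.

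Klrk1 varied least, at 1684, 1871 and 1621 CPM in Immature, M1 and M2 cells, and Klri2 had 1085, 1611 and 1314 CPM, each with its highest value in M1. Klri1 had 35.1, 22.2 and 22.3 CPM, or 138, 92 and 89 counts, and was highest in Immature cells. Its ratio of M1 over Immature was 0.632 (0.480 to 0.828), the single gene at least 1.5-fold lower there, against 13.1% of all genes. Its ratio of M2 over Immature was 0.635 (0.481 to 0.834), against 15.9% of all genes that were at least 1.5-fold lower. Between M2 and M1 none of the 8 genes passed 1.5-fold in either direction, against 11.6% of genes higher and 9.34% lower. Klrc1, at an M2 over M1 ratio of 1.48 (1.38 to 1.59), and Klrc3, at 0.697 (0.563 to 0.860), had intervals that crossed that limit. So did Klri2 for M1 over Immature, at 1.48 (1.43 to 1.54). Of 7 myeloid markers, all but Itgax were highest in M2 cells, with Lyz2 at 56.8, 60.1 and 231 CPM in Immature, M1 and M2. Of 11 T cell markers, 7 were highest in Immature cells, among them Cd3d at 234, 30.9 and 34.3 CPM in Immature, M1 and M2, and 4 in M2 cells (Cd4, Cd8a, Cd8b1 and Cd6). The sum of the 11 was 1054, 358 and 432 CPM in Immature, M1 and M2 cells, and the part of other cells in these courses was not tested.

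Genes whose levels followed a member most closely over the 9 libraries were taken by Pearson correlation of log2(CPM + 1) among 9011 other genes with a mean of at least 10 CPM. The 9 libraries share the gap between culture and spleen, so these values are a description only. Klre1 was closest to Nkg7, a granule membrane protein of killer cells (r = 0.996), Mapk9 (0.995) and Cd9 (0.994). Klrd1 was closest to Cpne3 (0.996), Enpp5 (0.995) and Tmx3 (0.994). Genes close to Klrc2 included Zxdb (0.993) and Ncr1, which encodes the activating receptor NKp46 (0.991). Klrc1 was closest to Smim19 (0.994), 2610035D17Rik (0.993) and Sec22b (0.992), and Klrc3 to Gimap6 (0.975), Col8a2 (0.972) and Gpd1l (0.971). Klrk1 was closest to Pank2 (0.989), Cstf2t (0.988) and Fbxw2 (0.988), and Klri2 to Tulp4 (0.989), Trp53bp2 (0.987) and Peg13 (0.986). Klri1 was closest to Vkorc1 (0.984), Cd226, which encodes the activating receptor DNAM-1 (0.971), and Dexi (0.964). Among the members themselves, Klrd1 and Klre1 were the closest pair (0.988), and Klri1 with Klrc3 the least alike (0.539).

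The molecules through which these receptors signal were examined as a list of 18 adaptors, kinases and phosphatases. None was called by edgeR or limma voom, with 4 of 18 at an unadjusted p under 0.05 in each, against 14.6% of all genes in edgeR, and the median log2 fold change was -0.02, against 0.01 for all genes. Values of the genotypes did not overlap for 6 of the 18, Tyrobp among them, against 20.4% of all genes. Tyrobp, which encodes DAP12, averaged 592 ± 83.2 CPM in Id2-null cells, against 501 ± 14.2 CPM in WT cells (SD, n = 3 each, adjusted p = 0.459, edgeR). Pik3cd, a catalytic subunit of PI3-kinase, averaged 867 CPM in Id2-null cultures, against 846 CPM in WT cultures (adjusted p = 0.949). Hcst, which encodes DAP10, averaged 56.3 ± 5.08 CPM in Id2-null cultures, against 62.5 ± 13.97 CPM in WT cultures (adjusted p = 0.792). Ptpn6, which encodes the phosphatase SHP-1 used by inhibitory receptors, averaged 233 ± 18.6 CPM in Id2-null cultures, against 266 ± 78.4 CPM in WT cultures (adjusted p = 0.755). DESeq2 and the fit with the replicate block called the kinase gene Syk higher and the phospholipase gene Plcg1 lower, with Syk at 141 CPM in Id2-null cells, against 88.7 CPM in WT cultures and Plcg1 at 1.19 CPM in Id2-null cells, against 5.70 CPM in WT cultures. Their edgeR adjusted p without the block was 0.0696 and 0.0597. Hcst, Ptpn6, Syk and Plcg1 were named after their values were seen.

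Of 11 ligand genes, 7 were in the files and 3 were expressed enough to be tested. None was called by edgeR, DESeq2 or limma voom, and 0 had an unadjusted p under 0.05. Values of the genotypes did not overlap for 1 of the 3, B2m, against 20.4% of all genes. H2-T23, which encodes Qa-1b, averaged 185 ± 15.8 CPM in Id2-null cells, against 197 ± 14.7 CPM in WT cells (SD, n = 3 each, adjusted p = 0.824, edgeR). B2m, the light chain of class I molecules, averaged 3466 ± 499.6 CPM in Id2-null cells, against 3030.2 ± 93.7 CPM in WT cultures (adjusted p = 0.577). Ulbp1, which encodes the NKG2D ligand MULT1, averaged 55.3 ± 1.92 CPM in Id2-null cells, against 56.3 ± 10.7 CPM in WT cultures. It had 10.7, 8.69 and 3.26 CPM in Immature, M1 and M2 cells. Raet1d, Raet1e, H60b and H60c had at most 4 counts in any library.

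Finally, the members were set among their neighbours in the NK gene complex, the stretch of chromosome 6 that also holds the NKR-P1 (Klrb1), Clec2 and Ly49 (Klra) genes. Within 1 Mb of any member lay 43 other genes, of which 23 could be tested. Of these, 1 was called higher, against 1.91% of all genes tested, and 3 lower, against 1.52%. Values of the genotypes did not overlap for 6 of the 23, against 20.4% of all genes. Klrb1b fell to 81.9 CPM in Id2-null cells, against 208 CPM in WT cells, Klra9 to 67.7 CPM in Id2-null cells, against 123 CPM in WT cells, and Klra1 to 42.8 CPM in Id2-null cells, against 74.5 CPM in WT cells. Klra6 rose to 51.7 CPM in Id2-null cells, against 23.02 CPM in WT cells (log2 fold change 1.17, adjusted p = 0.0205, edgeR). DESeq2 also called Klra5 lower, limma voom did not call Klra1, and the replicate block also called Klra4 lower. Ly49 genes are close copies, so their counts are uncertain. Of the members, the genes on either side of Klri1 were not called, with log2 fold changes of -0.34 for Klrc1 and -0.17 for Klri2, against -1.12 for Klri1. Klrc1 and Klrc2, which are also next to each other, had log2 fold changes of -0.34 and 0.50, and their ranges did not overlap between the genotypes for either gene. Gabarapl1, the nearest tested gene beyond Klre1, had 46.5 CPM in Id2-null cells, against 43.4 CPM in WT cells (adjusted p = 0.809).

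**Figure D5:**
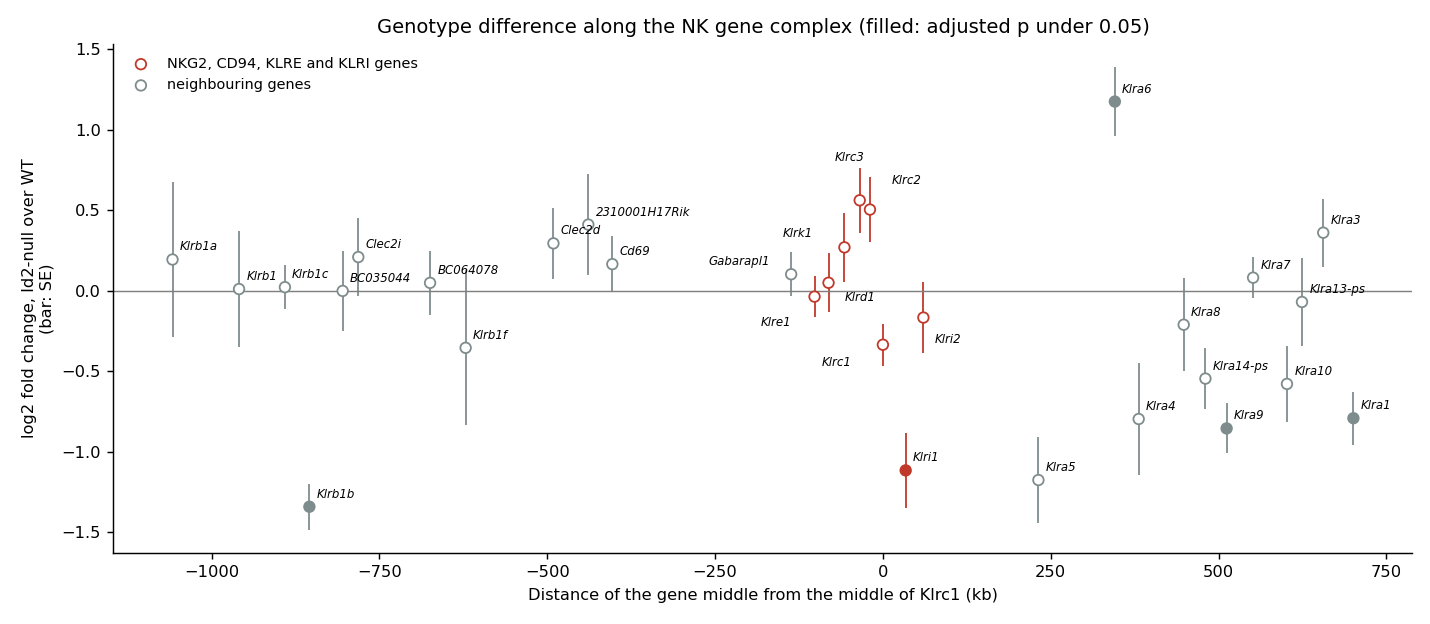
log2 fold change, Id2-null over WT (y axis, bars are SE), of the 8 receptor genes and of the 23 tested genes within 1 Mb, against the distance of each gene's middle from the middle of Klrc1 in kb (x axis). Filled points have an adjusted p under 0.05 by edgeR. Klri1 at -1.12 is the single filled point among the 8 receptor genes, and Klrb1b, Klra6, Klra9 and Klra1 are filled among the neighbours.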

How the data were processed

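The authors deposited unnormalized whole-number counts for 9 libraries by Entrez identifier, with each gene's length, per the file headers. The submitters' processing notes name Subread, featureCounts, limma and the build GRCm38 (mm10). Versions, annotation, strand and the treatment of multiply matching reads are not stated in the sources used here. The length column was the same in each file, and symbols came from RefSeq GRCm38.p6 for 25275 identifiers and from GENCODE for 18.

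Id2-null and WT cultures were compared with edgeR 4.0.16 in R 4.3.3 (filterByExpr with a minimum count of 10, TMM, robust quasi-likelihood fit, genotype only). The SE is the log2 fold change divided by the root of F. DESeq2 1.42.0 and limma voom 3.58.1 were alternatives. Replicate numbers may pair the libraries: deviations of equal numbers correlated at 0.299, 0.193 and 0.376 over 12326 genes. Id2-null replicate 1 with WT replicate 2, and Id2-null replicate 2 with WT replicate 1, were also positive, at 0.154 and 0.125. Unequal numbers that involve replicate 3 lay between -0.347 and -0.217. Pairing is therefore not established for replicates 1 and 2, and the block is given where it matters. Sorted libraries had no test. Ratios were tested exactly with scipy 1.17.1, and promoters aligned with Biopython 1.88. Named genes were all members, called or else the 2 most expressed genes of each list, neighbours within 1 Mb and the 3 closest genes by correlation. Of the genes this rule took, 1 is not reported here. Marker genes and Gabarapl1, Ulbp1, Klra4 and Klra5 were chosen after their values were seen. Members, lists and rules were chosen with earlier results of these data known. Intervals cover counting error only, as the libraries carried no stated molecular identifiers.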

Additional observations from a re-analysis of the deposited data

How the results depend on the processing

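The number of genes called between Id2-null and WT cultures was 377 and moved to 580 with DESeq2, to 836 with the replicate block, to 121 to 662 when 1 library was left out and to 1066 without replicate 3 of both genotypes. The number of receptor genes called was 1, and 0 to 1 with 1 library left out and 2 (Klri1 and Klrc3) without replicate 3 of both genotypes. Scaling by library size, DESeq2, limma voom, no expression filter, all 9 libraries in the fit and the replicate block each called Klri1 alone, and the block changed no other call among the 8 genes. The log2 fold change of Klrd1 ranged from -0.131 to 0.152 with 1 library left out, reversing to -0.03 without Id2-null replicate 3 and to -0.13 without WT replicate 2. That of Klre1 ranged from -0.138 to 0.0363, reversing without WT replicate 1. The summed Klrc rows, at -0.01, ranged from -0.0870 to 0.0731 with 1 library left out, reversing to 0.06 without Id2-null replicate 2, to 0.07 without WT replicate 3, and to 0.0160 without replicate 3 of both genotypes. The cause of these moves was not tested. The difference in the Klrc1 share, -14.3 points, stayed between -16.05 and -11.6 with 1 library left out, and was -14.3 with a pseudocount of 1. The difference in the Klri1 share was -2.13 points (-2.68 to -1.11 with 1 library left out, and exact permutation p = 0.25 with the replicate block). That of Klrc over Klrd1 was -0.0442 (-0.0980 to 0.0208, reversed without WT replicate 2). Under 3 other scalings, at least 38 of 40 places in the order of groups were the same, and 2 in place of 3 genes passed 1.5-fold between M2 and Immature cells. Counts of 28 to 80 limit the precision of Klri1 in the cultures.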
